A study of Homo sapiens with 2 samples.

Results

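A set of 10 genes that make, take up, bind, break down or respond to retinoic acid were followed across every annotated class of 2 single-cell libraries of enteric neural crest differentiation. They are ALDH1A2, ALDH1A3, STRA6, CRABP1, CRABP2, CYP26A1, CYP26B1, CYP26C1, DHRS3 and RARB. The set was defined by function, with earlier results of these data known, and all 10 genes were found by name among the 33694 genes listed in both count tables. On GRCh38 (GENCODE 29), CYP26A1 lies at chr10:93073475-93077890 and CYP26C1 on the same strand before it at chr10:93060808-93069536. DHRS3 lies at chr1:12567910-12617731 and CRABP2 at chr1:156699606-156705816. RARB lies at chr3:25174332-25597932, CRABP1 at chr15:78340324-78348230 and STRA6 at chr15:74179466-74212267.

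Retinoic acid is a small molecule made from vitamin A that diffuses into cells and acts through nuclear receptors, which sit on DNA and switch target genes on when the ligand binds. Cells set their own exposure: aldehyde dehydrogenases make the acid, carrier proteins hold it, CYP26 enzymes destroy it, and several of these genes are themselves turned on by retinoic acid, which forms a feedback loop. In the embryo retinoic acid gives the hindbrain and the vagal neural crest their position along the body axis, and the vagal crest supplies most neurons and glia of the gut.

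Both libraries came from H9, a line of human embryonic stem cells. The day 10 library (D10) was made from adherent cultures on Geltrex at day 10 of enteric neural crest induction, in a protocol whose later monolayer medium contained retinoic acid. Its source and plating labels say so, while its tissue label reads crestosphere. The day 15 library (D15) was made from crestospheres, floating aggregates formed after the monolayers were detached and moved to a medium with FGF2 and an agonist of WNT signalling. Retinoic acid is not among the listed parts of that medium, while B27, a supplement whose usual formulation carries a vitamin A ester, is. Each library pooled 2 biological repeats that the metadata do not separate, so each stage is 1 sample. No difference between stages could be tested, all intervals are 95% intervals of counting error only, and day, culture format, medium, depth and library cannot be told apart.

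Unique molecular identifiers (UMIs) each stand for 1 captured RNA, and the tables hold 70488169 of them over 9627 cells at D10 and 84976253 over 6320 cells at D15. Median depth per cell was 6713 UMIs at D10 and 11770.5 at D15. Levels are in CPM, the number of UMIs of a gene in a class for every 1000000 UMIs of that class. The authors annotated enteric neural crest cells (ENCCs, 4921 at D10 and 4934 at D15), neuroepithelial progenitors (NEP), clusters labelled placode (CP at D10, CP1 and CP2 at D15), non-neural ectoderm (NNE, D10) and mesenchymal cells (Mes, D15). Most ENCCs carried a subcluster number, ENCC 1 to 4 at D10 and ENCC 1′ to 4′ at D15. Another 256 at D10 and 27 at D15 had the cell type of ENCCs but the subcluster label Non-NC. They are counted in the ENCC values and called unnumbered ENCCs here. Against the fixed markers, the 10 leading genes of ENCCs included SOX10 at D10, and ERBB3 and SOX10 at D15. The leading genes of the D15 cluster labelled NEP included KRT19 and KRT18 and no NEP marker, and those of CP2 held no placode marker but PAX6 from the NEP list. Those of NNE, annotated at D10 only, included none of its markers. All 6 were above 3 UMIs there, at a summed level of 5478 CPM, with EPCAM at 248 CPM. The summed NNE markers were at 1387 CPM in D10 NEP and 941 CPM in D15 NEP. The summed NEP markers were at 1419 CPM and 268 CPM in these classes. Given the leading genes of the D15 NEP and CP2 clusters, only ENCCs were compared between stages by name. A barcode occurring in both libraries marked 102 cells in each, and no count of members past 2-fold changed without them.

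The member genes were available to the clustering that defined the classes, so differences between classes are descriptions.

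In the set, 2 genes carried a match to the DNA element that retinoic acid receptors bind best. This is a direct repeat of a half-site with a spacer of 5 bases (DR5). A half-site could be AGGTCA, as in the consensus element, or AGTTCA with another middle base, or either with a changed first base (GGGTCA for the former, GGTTCA for the latter). Both strands were searched in windows from 250 bases before to 50 bases after each RefSeq transcription start (GRCh38.p14). Elements outside these windows were not searched for. Neither gene's match holds the consensus half-site AGGTCA. The elements are shown because RARB and CYP26A1 are among the members that were lower at D15, with the half-sites in capitals and 6 bases on either side.

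RARB: gggtagGGTTCAccgaaAGTTCActcgca
CYP26A1: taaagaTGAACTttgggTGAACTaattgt

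The RARB element lies at chr3:25428210-25428226, 53 bases before a transcription start and on the gene's strand, within an intron of a longer RARB transcript. The CYP26A1 element lies at chr10:93073803-93073819, 90 bases before the second annotated start and on the opposite strand, within an exon of 1 annotated CYP26A1 transcript. Such a repeat occurred in the windows of 29 of 27305 genes (0.106%). The same half-sites spaced by 1 or by 2 bases (DR1 and DR2) were found in the windows of 0 members. A match in these letters does not show that a receptor was bound.

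Between the whole libraries, 5 of the 6 members with at least 5 CPM at either stage were at least 2-fold lower at D15, and 0 were at least 2-fold higher. Over all 9904 genes that entered, 863 (8.71%) were lower and 856 (8.64%) higher by that size. The median log2 ratio of D15 over D10, taken on CPM + 1, was -1.89 for these members and -0.15 for all genes entering. Under TMM scaling the background shifted to a median of 0.05, with 635 genes lower and 1096 higher. The same 5 members stayed lower, and STRA6 was at least 2-fold higher (log2 ratio 1.11), as it did with median-of-ratios size factors (1.16). Cell composition and level per cell both enter these whole-library values.

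CYP26A1, an enzyme that breaks down retinoic acid and a classic direct target of its receptors, showed the largest difference among the members. Its D10 level of 283 CPM (280 to 287) compares with 1.86 CPM (1.58 to 2.17) at D15, a value 152-fold lower (130 to 179). DHRS3, which reduces retinal back to retinol and so limits synthesis, stood at 48.7 CPM (47.1 to 50.3) at D10 against 1.08 CPM (0.873 to 1.33) at D15, 45.0-fold lower. These negative regulators of retinoic acid thus differed more between the libraries than the receptor and binding protein genes did.

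RARB, the receptor gene that is induced by its own ligand, was at 18.0 CPM at D10 and 3.60 CPM (3.21 to 4.03) at D15, 5.00-fold lower (4.41 to 5.69). CRABP1, a cytosolic binding protein, was at 177 CPM and 52.7 CPM, 3.35-fold lower (3.24 to 3.47). CRABP2, the binding protein that hands retinoic acid to nuclear receptors, was at 1546 CPM and 549 CPM, 2.82-fold lower (2.79 to 2.85). STRA6, the membrane receptor that takes up retinol from its plasma carrier, went the other way, at 18.2 CPM (17.2 to 19.2) and 35.4 CPM (34.2 to 36.7). Its D15 level was 1.95 times that of D10 (1.82 to 2.08), just short of 2-fold.

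**Figure D1:**
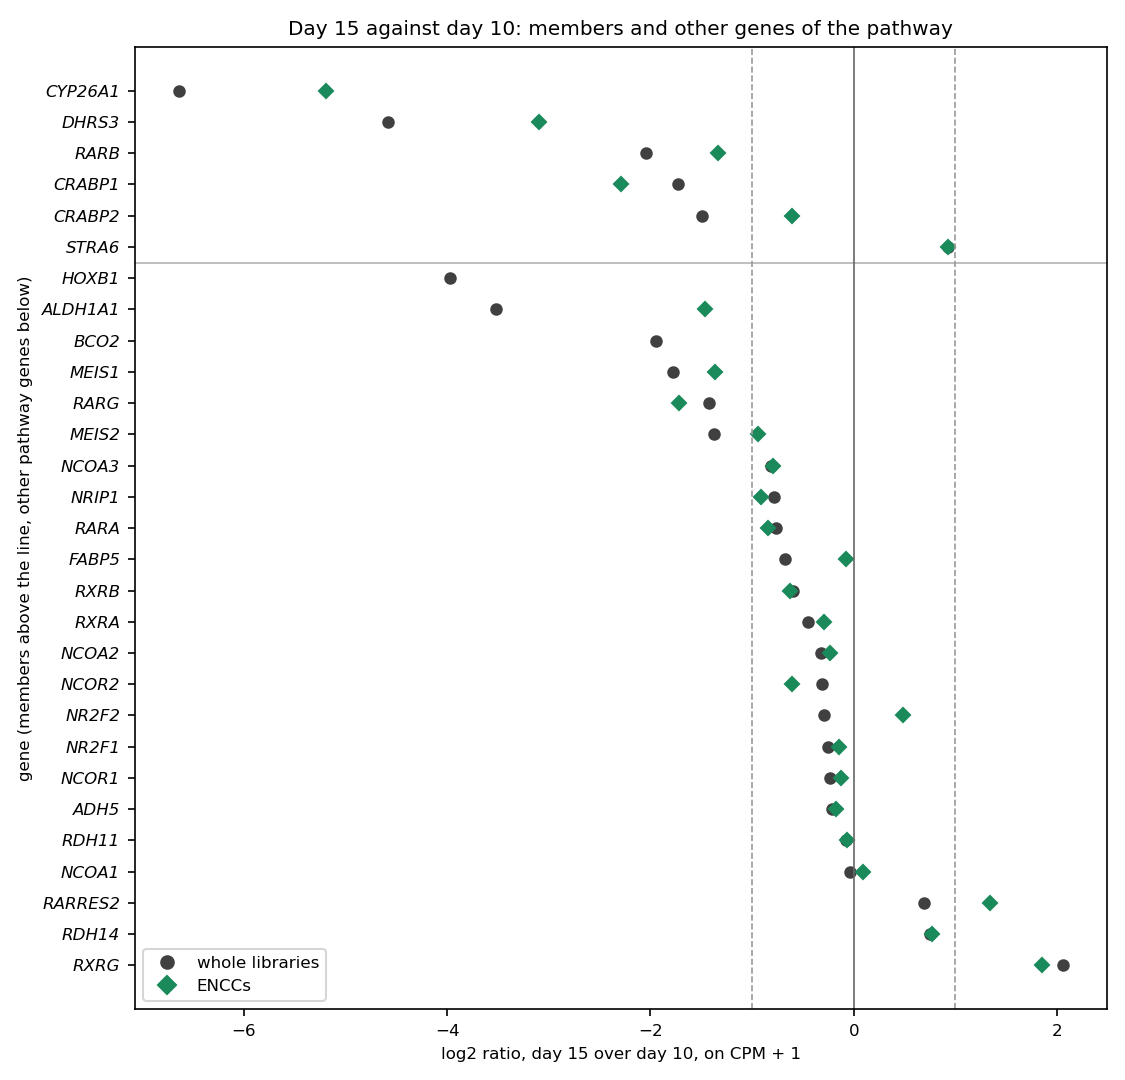
Log2 ratio of day 15 over day 10, on CPM + 1, for members and other pathway genes with at least 5 CPM at either stage, in whole libraries (circles) and in ENCCs (diamonds); dashed lines mark 2-fold, and HOXB1 was at 0 UMIs at day 15. CYP26A1 stands farthest to the left at -6.64 and -5.19, and STRA6 is the one member to the right of 0.

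Within ENCCs alone, 4 of the 6 members that entered were at least 2-fold lower at D15 and 0 higher, against 557 of 9257 genes lower (6.02%) and 765 higher (8.26%). CYP26A1 was at 45.4 CPM (43.2 to 47.6) in D10 ENCCs and 0.269 CPM (0.150 to 0.443) in D15 ENCCs, where 15 UMIs were counted in 4934 cells. DHRS3 was at 10.2 CPM and 0.304 CPM, 33.4-fold lower (20.6 to 58.0). CRABP1 was at 90.2 CPM and 17.6 CPM, 5.11-fold lower (4.76 to 5.49), and RARB at 11.2 CPM and 3.83 CPM, 2.92-fold lower (2.47 to 3.46). CRABP2 did not reach 2-fold, at 909 CPM and 596 CPM, and STRA6 was again higher, at 20.7 CPM and 40.4 CPM.

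The D10 level of CYP26A1 in ENCCs sat mostly in a small set of cells. The 256 unnumbered ENCCs (subcluster label Non-NC), 5.20% of D10 ENCCs, held 1277 of the 1676 CYP26A1 UMIs (76.2%) and 60.9% of the DHRS3 UMIs. CYP26A1 was at 568 CPM (537 to 600) in these cells and at 11.5 CPM (10.4 to 12.7) in the numbered ENCCs. The summed level of the 6 NEP markers was 1127 CPM in the unnumbered ENCCs, 1419 CPM in NEP cells and 39.0 CPM in numbered ENCCs. HES5 and LHX2 were at or under 3 UMIs in all 3 classes. In NEP cells WNT2B was at 827 CPM and PAX6 at 572 CPM. SOX2 was at 16.1 CPM there and at 21.5 CPM in numbered ENCCs. The summed level of the 6 NNE markers was 992 CPM in the unnumbered and 52.0 CPM in the numbered ENCCs. It was 1387 CPM in NEP cells and 5478 CPM in NNE cells. The summed level of the 6 ENCC markers was 556 CPM in the unnumbered and 2120 CPM in the numbered ENCCs. Median depth was 8376.5 UMIs in the unnumbered and 6943 in the numbered ENCCs. The part of these differences in the CYP26A1 level was not tested.

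Restricted to numbered ENCCs, CYP26A1 was at 11.5 CPM at D10 and 0.270 CPM at D15, 42.6-fold lower (25.5 to 76.8). DHRS3 then stood at 4.24 CPM and 0.288 CPM and no longer entered at 5 CPM. CRABP1 was 4.70-fold lower (4.37 to 5.06) and RARB 2.79-fold lower (2.35 to 3.32), close to their values in all ENCCs. CRABP2 was 1.37-fold lower, at 819 CPM and 597 CPM. The median log2 ratio of the 5 members that entered was -1.28 here, against -1.81 for the 6 that entered in all ENCCs.

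Across the D10 cell types, CYP26A1 was ordered NNE, NEP, ENCC and CP. NNE had 1198 CPM (1149 to 1249), NEP 691 CPM (678 to 705), ENCC 45.4 CPM and CP 41.5 CPM (33.9 to 50.3). NNE exceeded NEP by 1.73 times (1.65 to 1.82) and NEP exceeded ENCC by 15.2 times (14.5 to 16.1), while ENCC and CP overlapped. Against numbered ENCCs alone, at 11.5 CPM, CP was 3.61 times higher (2.88 to 4.49) and NEP 60.1 times higher (54.4 to 66.6), so the place of ENCC above CP rested on the unnumbered cells. The highest levels of this catabolic gene at D10 were thus in the epithelial and neural classes and not in the crest.

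To compare cells of unequal depth, each was thinned to 3000 UMIs. A CYP26A1 UMI was then seen in 85.1% (79.9 to 89.4) of NNE cells, 67.6% (65.4 to 69.7) of NEP cells, 9.91% (6.88 to 13.7) of CP cells and 6.46% (5.79 to 7.19) of ENCCs, so that CP and ENCC changed places against the order of levels, with overlapping intervals. The share was 59.1% (52.7 to 65.2) in unnumbered ENCCs. In numbered ENCCs, with a median depth of 6943 UMIs against 7227 in NEP, the share was 3.60% (3.09 to 4.18), and 7.78% before thinning. The 4 numbered subclusters lay between 3.28% and 4.28% with overlapping intervals.

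**Figure D2:**
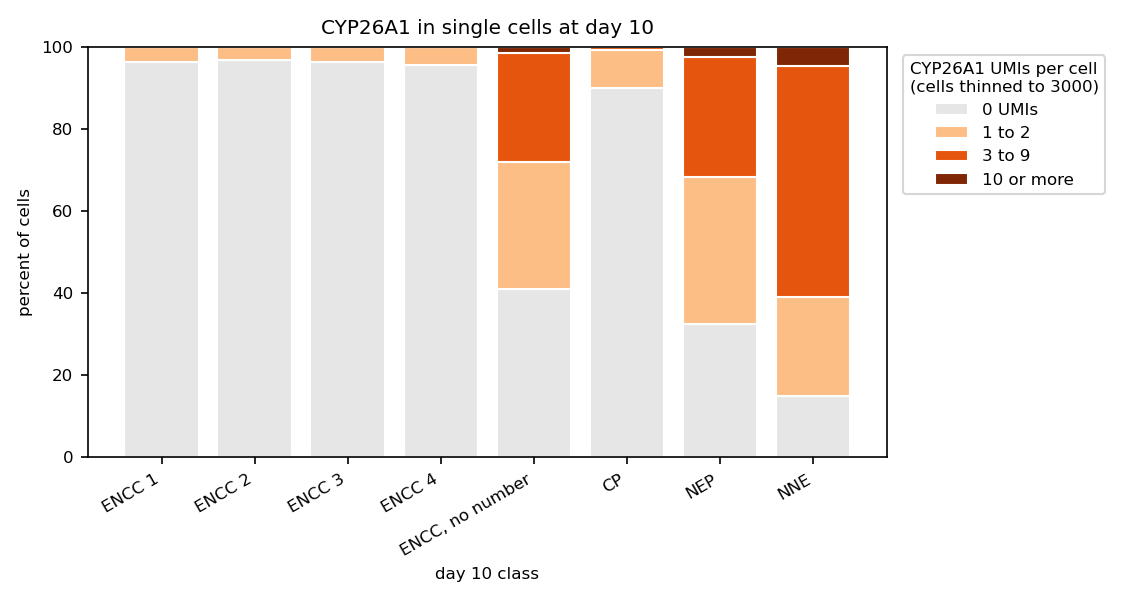
Percent of day 10 cells (vertical axis) with 0, 1 to 2, 3 to 9 or 10 or more CYP26A1 UMIs after thinning to 3000 UMIs, by class. Cells with 3 or more UMIs make up most of NNE, about as large a share of the unnumbered ENCCs as of NEP, and 0% of the numbered ENCC subclusters.

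Before thinning, the highest count in any numbered ENCC was 5 CYP26A1 UMIs, against 56 in NEP, 36 in NNE and 49 in the unnumbered ENCCs. The numbered ENCC level of CYP26A1 was 4.06% of its whole-library level, and the same quantity ranged from 2.91% (KRT19) to 17.1% (EPCAM) over the 6 fixed markers of NNE. Of the NEP markers, WNT2B and PAX6 were at 3.51% and 3.25%, SOX2 was at 117%, and FEZF2, HES5 and LHX2 had at most 2 UMIs in numbered ENCCs. CYP26A1 thus lay within the range of markers of other classes, and low expression and RNA from other cells were not told apart in numbered ENCCs, where its ratio between stages is given as a value only. For CRABP2, RARB, CRABP1 and STRA6 the same quantity was 53.0%, 59.7%, 45.8% and 115%. DHRS3 was at 8.70%, close to KRT8 and KRT18 at 8.85% and 7.45%.

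DHRS3 followed the order of CYP26A1 at D10. NNE had 213 CPM (193 to 236), NEP 112 CPM (106 to 117), ENCC 10.2 CPM and CP 9.97 CPM (6.45 to 14.7), the last pair overlapping. After thinning, a DHRS3 UMI was seen in 42.1% of NNE cells, 26.9% of NEP cells and 1.16% of numbered ENCCs. The number of CYP26A1 UMIs for each DHRS3 UMI was 5.61 (5.04 to 6.27) in NNE, 6.19 (5.87 to 6.54) in NEP and 5.58 (4.84 to 6.45) in the unnumbered ENCCs, and 2.71 (2.24 to 3.30) in numbered ENCCs. Over the 17 annotated classes of both stages, log2(CPM + 1) of these genes had a Pearson r of 0.93, and 0.99 over the 8 classes of D10. The classes of a stage share 1 library.

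**Figure D3:**
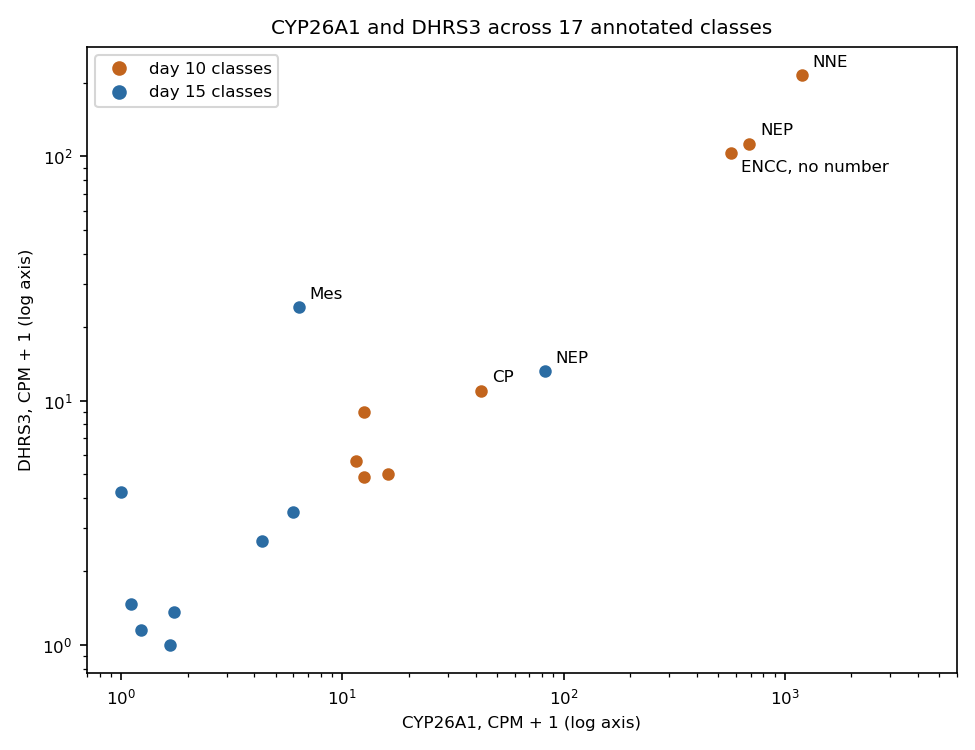
Level of CYP26A1 (horizontal) and DHRS3 (vertical) in the 17 annotated classes, as CPM + 1 on log axes, orange for day 10 and blue for day 15. NNE, NEP and the unnumbered ENCCs of day 10 sit together at the top right, and Mes of day 15 has more DHRS3 than CP1, whose CYP26A1 interval overlaps its own.

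At D15 the remaining CYP26A1 was concentrated in 1 small cluster. The 104 cells labelled NEP held 93 of the 158 UMIs of the library, at 81.1 CPM (65.4 to 99.3), against 5.35 CPM (1.10 to 15.6) in Mes, 3.35 CPM (1.45 to 6.60) in CP1 and 0.269 CPM in ENCCs. After thinning, 10.6% (5.40 to 18.1) of these cells and 0.0405% of ENCCs had a UMI, at median depths of 10953.5 and 11082 UMIs. A single cell held 23 of the 93 UMIs. In this cluster the summed NNE markers stood at 941 CPM and the summed NEP markers at 268 CPM. In D10 NEP these sums were 1387 CPM and 1419 CPM. The part of either list in the CYP26A1 level of the D15 cluster was not tested. DHRS3 at D15 was highest in Mes at 23.2 CPM (12.3 to 39.6) and in the NEP-labelled cells at 12.2 CPM (6.67 to 20.5), from 13 and 14 UMIs, and these overlapped.

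**Figure D4:**
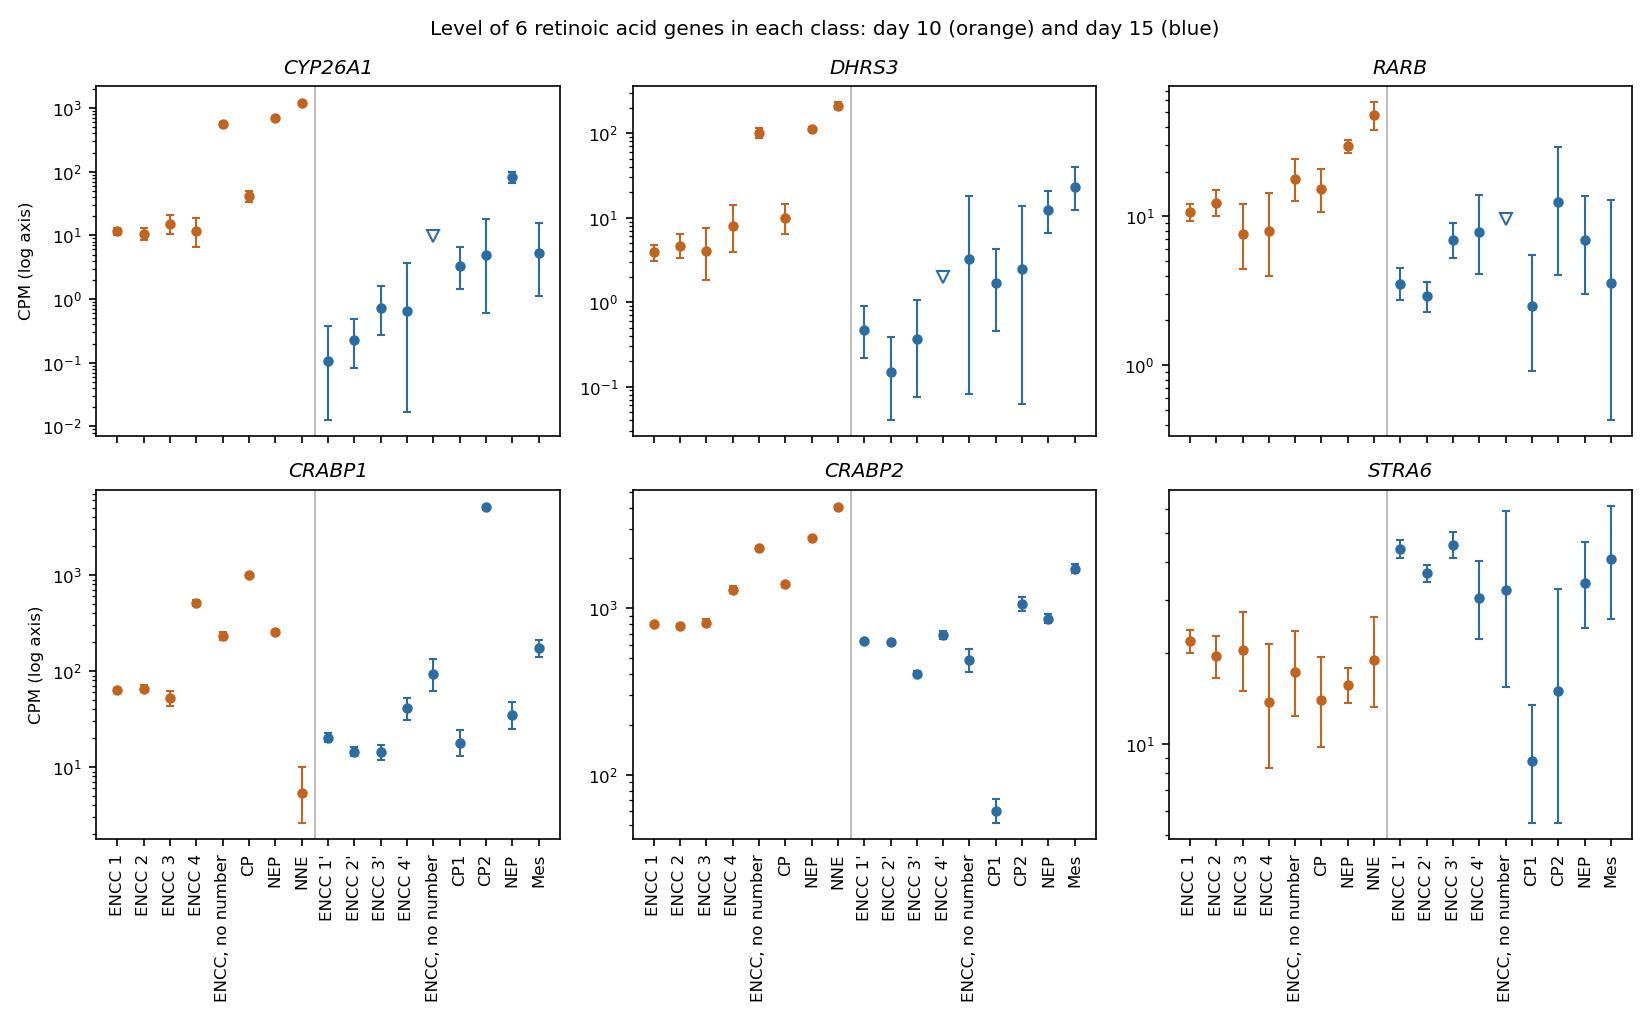
CPM (log axes, which differ between panels) of 6 members in each annotated class, with exact Poisson 95% intervals; open triangles mark the level that 3 UMIs would give where 0 were counted. CYP26A1 and DHRS3 share one pattern at day 10, CRABP1 peaks in CP and CP2, and STRA6 is higher in most day 15 classes than at day 10.

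RARB was ordered NNE, NEP, CP and ENCC at D10. NNE had 47.7 CPM (38.2 to 58.7), NEP 29.5 CPM (26.7 to 32.5), CP 15.2 CPM (10.7 to 20.8) and ENCC 11.2 CPM (10.1 to 12.3), with the last pair overlapping. The contrast was far smaller than for CYP26A1, since NNE exceeded numbered ENCCs by 4.43 times (3.47 to 5.61) for RARB and by 104 times (93.6 to 116) for CYP26A1. Among D15 ENCCs, RARB was at 6.96 CPM (5.27 to 9.01) in ENCC 3′ and 7.92 CPM (4.09 to 13.8) in ENCC 4′, and at 3.53 CPM and 2.91 CPM in ENCC 1′ and 2′. The interval of ENCC 3′ lay above those of ENCC 1′ and 2′.

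CRABP2 was detected in 96.0% of D10 cells before thinning and followed the same order of types. NNE had 4051 CPM (3960 to 4144), NEP 2665 CPM (2639 to 2693), CP 1391 CPM (1345 to 1438) and ENCC 909 CPM (899 to 918), with no overlap. ENCC 4 stood apart from the other numbered subclusters, at 1297 CPM (1237 to 1358) against 784 to 819 CPM. After thinning, 84.1% of numbered ENCCs had a CRABP2 UMI at D10 and 77.1% at D15.

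At D15, CRABP2 was highest in Mes at 1733 CPM (1626 to 1846), then CP2 at 1065 CPM (966 to 1170), NEP at 868 CPM (815 to 924) and ENCC at 596 CPM (590 to 603). CP1 was lowest at 60.3 CPM (50.8 to 71.0), 9.89-fold below ENCC (8.40 to 11.7), and 13.5% of its cells had a UMI after thinning. ENCC 3′ was at 403 CPM (390 to 417), below the 624 to 692 CPM of the other numbered subclusters.

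CRABP1 departed from this order. At D10 it was highest in CP at 997 CPM (959 to 1037), then NEP at 254 CPM (246 to 262), ENCC at 90.2 CPM (87.1 to 93.3) and NNE at 5.42 CPM (2.60 to 9.96), with no overlap. NNE, the class with the most CYP26A1, DHRS3, RARB and CRABP2, thus had the least CRABP1, from 10 UMIs in 239 cells. After thinning, 35.0% of CP cells, 39.3% of NEP cells and 2.13% of NNE cells had a CRABP1 UMI, and 9.91% of CP cells but 0.222% of NEP cells had 10 or more. The tenth of CP cells with the most CRABP1 held 73.3% of its UMIs, against 47.0% in NEP.

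ENCC 4 was at 512 CPM (475 to 551) of CRABP1, 6.32 times (5.82 to 6.87) the level of all numbered D10 ENCCs, and ENCC 1, 2 and 3 were at 52.5 to 66.0 CPM. A CRABP1 UMI was seen in 37.4% (30.5 to 44.8) of thinned ENCC 4 cells and in 8.33% to 11.5% of the other 3 subclusters. At D15, ENCC 4′ was also the highest numbered subcluster, at 40.9 CPM (31.4 to 52.4) against 14.3 to 20.4 CPM. The numbers were given by the authors to each library on its own and do not by themselves match subclusters between stages.

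CP2 of D15 held 2038 of the 4477 CRABP1 UMIs of its library in 43 cells, at 5070 CPM (4852 to 5295), and 42 of the 43 cells had a UMI after thinning. CRABP1 was the leading gene of CP2, and PAX6 was among its 10 leading genes. Mes followed at 175 CPM (142 to 213), NEP at 34.9 CPM (24.9 to 47.5), CP1 at 18.0 CPM and ENCC at 17.6 CPM, the last pair overlapping. The fixed placode markers ISL1 and NEUROD1 were each above 3 UMIs in CP2, and EYA2 and SIX4 were not.

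STRA6 varied little across the D10 types, with ENCC at 20.7 CPM (19.3 to 22.2), NNE at 19.0 CPM (13.2 to 26.4), NEP at 15.6 CPM (13.6 to 17.8) and CP at 14.0 CPM (9.72 to 19.4). Neighbours in that order overlapped, the interval of ENCC lay above that of NEP, and STRA6 was the only member that entered with its highest D10 level in ENCCs. At D15, Mes was at 41.0 CPM (26.0 to 61.5), ENCC at 40.4 CPM, NEP at 34.0 CPM (24.2 to 46.5), CP2 at 14.9 CPM (5.48 to 32.5) and CP1 at 8.79 CPM. Thinned cells with a STRA6 UMI made up 6.22% (5.56 to 6.93) of ENCCs at D10 and 11.2% (10.4 to 12.1) at D15, against 1.92% (0.526 to 4.85) in CP1.

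The remaining members were under 5 CPM in both whole libraries, and apart from ALDH1A3 they had few UMIs. ALDH1A2, the main retinaldehyde dehydrogenase of the trunk mesoderm, had 11 UMIs in the D10 library and 36 in D15, of which 31 were in ENCCs. ALDH1A3, a related enzyme of eye and placode tissue, had 195 UMIs at D10 and 26 at D15. Of the D10 UMIs 113 were in NEP, at 8.05 CPM (6.63 to 9.68) against 0.460 CPM (0.268 to 0.737) in ENCC. CYP26B1 had 12 and 6 UMIs and CYP26C1 37 and 10, so of the CYP26 enzymes only CYP26A1 reached 5 CPM in a library. The NEP-labelled cells held 7 of the 10 D15 UMIs of CYP26C1, at 6.10 CPM (2.45 to 12.6).

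A list of 40 other genes of the pathway was read by role. Of the 25 that entered in whole libraries, 8 were at least 2-fold lower at D15 and 1 higher, against 8.71% and 8.64% of all genes. Of the 22 that entered in ENCCs, 4 were lower and 2 higher, against 6.02% and 8.26% of all genes, with a median log2 ratio of -0.26 against -0.14 for all genes entering. The median of the members in ENCCs was -1.81.

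Among synthesis genes, ALDH1A1, another retinaldehyde dehydrogenase, was at 30.1 CPM and 1.72 CPM in whole libraries, 17.5-fold lower (14.8 to 20.8). In ENCCs it was at 6.52 CPM and 1.74 CPM, and in numbered ENCCs at 2.77 CPM and 1.75 CPM. BCO2, which cleaves carotenoids, was at 7.04 CPM and 1.08 CPM in whole libraries.

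The nuclear receptor genes differed in direction. RARG was at 39.8 CPM in D10 ENCCs and 11.4 CPM in D15 ENCCs, 3.50-fold lower (3.19 to 3.85), and RARA was at 30.2 CPM and 16.4 CPM. The partner receptor RXRG was higher at D15, at 9.18 CPM and 35.8 CPM in ENCCs, a log2 ratio of 1.85. RXRA was at 8.90 CPM and 7.09 CPM and RXRB at 14.97 CPM and 9.36 CPM, both short of 2-fold.

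Among target genes, HOXB1, an early hindbrain gene controlled by retinoic acid, was at 14.7 CPM at D10 and at 0 UMIs at D15 in whole libraries. It sat in the classes with high CYP26A1, at 127 CPM in NNE, 28.6 CPM in NEP and 0.605 CPM in numbered ENCCs. MEIS1, a cofactor of HOX proteins, was at 6.39 CPM and 1.86 CPM in ENCCs, and its relative MEIS2 was at 48.0 CPM and 24.5 CPM there, short of 2-fold, and at 94.1 CPM and 35.6 CPM in whole libraries. RARRES2, which encodes the secreted protein chemerin, was higher in D15 ENCCs, at 32.2 CPM against 12.1 CPM.

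Over the 17 classes, the genes most like each member were named from 3892 genes with at least 50 CPM in a class. For CYP26A1 they were GATA3 (r = 0.96), MSX2 (0.96) and CXCL14 (0.95), all with more RNA in NNE and NEP than in ENCCs at D10. For DHRS3 they were ID1, BMP4 and AHNAK (0.92 each), where ID1 is a target and BMP4 a ligand of BMP signalling. For CRABP2, CRABP1, STRA6 and RARB the best r was 0.90 (CNN2), 0.87 (LINC00667), 0.87 (BACE2) and 0.89 (HIGD2A). Between members, CRABP2 had r of 0.95 with CYP26A1 and 0.97 with DHRS3 over the 8 D10 classes, and 0.67 and 0.73 over the 17. CRABP1 had r of -0.24 with CYP26A1 over the 8 D10 classes and 0.12 over the 17.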

How the data were processed

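Droplet-based 3′ RNA sequencing (10x Genomics) was applied to 1 library per stage. Per the study's methods, the authors extracted counts with kallisto and bustools and filtered and annotated cells in Seurat. The submitters' processing notes name Cell Ranger and GRCh38 instead, with Seurat 4.0.4. Which of these produced the deposited counts is not clear, and the annotation is not given in the sources used here. The deposited counts are raw UMIs per gene and cell, and the deposited metadata hold UMI and gene counts, the percent of mitochondrial and ribosomal UMIs, a novelty score, phase, cell type and subcluster, of which only counts, cell type, subcluster and phase were used. All deposited cells entered whole-library values, including the 2332 and 984 that the authors had removed.

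Counts were summed by class in Python 3.11.15 and scaled to CPM. Genes entered with at least 5 CPM at 1 stage, log2 ratios used a pseudocount of 1 CPM, and a log2 ratio of at least 1 in size was counted. Sums carry exact Poisson intervals, ratios exact conditional binomial and shares Clopper-Pearson intervals, at 95%. A count of 0 allows 3 UMIs. Shares were taken after thinning cells to 3000 UMIs, with shallower cells left out (6.09% at D10, 0% at D15). No doublet caller was run. The steps were tested on simulated data. TMM factors came from edgeR. The members, the other pathway genes and the markers were chosen with earlier results of these data known. Named were all members, other pathway genes past 2-fold or encoding nuclear receptors, and the 3 genes most like each member with at least 20 CPM in a class of at least 25 cells. A few genes that met these rules are not reported here. Gene positions came from GENCODE 29 and promoter windows from RefSeq, both on GRCh38. Alternatives covered the pseudocount, filter, scaling, cells and thinning.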

Additional observations from a re-analysis of the deposited data

How the results depend on the processing

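No paired analysis was possible because each stage is 1 library and no result comes from a test, and no replicate could be left out. Of 74 values of the summary counts under other settings, 63 stayed within 1.5 times. Of the log2 ratios of single members under other settings, 74 stayed within counting error of the main value and 36 moved beyond it. TMM scaling and median-of-ratios size factors each added 1 member at least 2-fold higher, STRA6, both in whole libraries and in ENCCs. They shifted the median of all genes in whole libraries from -0.15 to 0.05 and 0.09, and in ENCCs from -0.14 to 0.05 and 0.05. Relative to that median STRA6 stood at 1.08 before and at 1.07 after either scaling in whole libraries. In ENCCs TMM gave 388 genes lower and 957 higher, against 557 and 765. A filter of 20 CPM left 2 members lower in ENCCs (CRABP1 and CYP26A1) and 2 pathway genes lower, since fewer genes entered. A pseudocount of 5 CPM also left 2 pathway genes lower, and 3 members, with RARB short of 2-fold at a log2 ratio of -0.87. Without a filter, 2 members were highest in ENCCs at day 10 and 3 at day 15, the added ones resting on 31 UMIs or fewer. Asking for at least 2 UMIs left 1 member, CRABP2, in more than 5% of ENCCs at each stage, against 4 and 2 members with at least 1 UMI. In ENCCs the log2 ratio of CYP26A1 ranged from -6.95 to -3.26 and that of DHRS3 from -4.67 to -1.52. None of the ratios of the 6 members that entered changed sign.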

Other observations

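CRABP1 varied with the deposited cell cycle phase inside the numbered ENCCs. At D10 G1 cells had 102 CPM (96.1 to 108), S cells had 85.8 CPM (80.5 to 91.3), and G2M cells had 55.9 CPM (51.7 to 60.4). At D15 G1 cells had 22.5 CPM (20.4 to 24.9), S cells 16.4 CPM (14.8 to 18.1) and G2M cells 12.1 CPM (10.3 to 14.0). CRABP2 had the same order of phases at D10, with 937 CPM (920 to 955) in G1, 858 CPM (841 to 875) in S, and 665 CPM (651 to 680) in G2M. STRA6 did not follow it, at 21.7, 20.2 and 20.9 CPM at D10 with overlapping intervals. At D15 STRA6 was at 40.6 CPM (37.7 to 43.8) in G1 and 36.4 CPM (34.0 to 38.9) in S. It was highest in G2M at 46.8 CPM (43.4 to 50.5), and the S and G2M intervals did not overlap. Phases were scored by the authors from other genes, and the part of subcluster composition in these differences was not tested.

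The cells that the authors had removed, 24.2% of the cells of the D10 library, held 31.4% of its CYP26A1 UMIs and 31.2% of its DHRS3 UMIs, and 17.8% of its STRA6 UMIs. At a median depth of 3679 UMIs, they held 15147883 of the 70488169 UMIs of all genes. CYP26A1 stood at 415 CPM (405 to 425) in these cells. With kept cells only, the log2 ratio of CYP26A1 between whole libraries was -6.37.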
